A study of Mus musculus with 167 samples.

Results

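The complement genes C1qa, C1qb, C1qc, C3, C4b, Cfp, C3ar1 and C5ar1 were followed through mouse embryonic fibroblasts (MEFs) that had been given dendritic cell transcription factors, and through splenic dendritic cells. The members were the rows of the count table whose Ensembl identifiers carry these mouse symbols, and all 8 were present among 57010 identifiers. RNA sequencing libraries were made from 5000 sorted live cells each, and fell into 41 groups of 3 to 5 by cell line, lentiviral cocktail, day and sort gate. The cocktail PIB carried Pu.1, Irf8 and Batf3, PIP carried Pu.1, Irf4 and Prdm1, and SII carried Spib, Irf8 and Ikzf2. PIB, PIP and SII entered MEFs of the C9a line, double homozygous for Clec9a(Cre/Cre) and Rosa26(tdTomato/tdTomato), in which tdTomato (tdT) marks cells that have switched on the Clec9a promoter. SII also entered MEFs of the hCD2 line, heterozygous for hCD2(Cre/WT) and Rosa26(YFP/WT) on a C57BL/6 background, with YFP as the reporter, and the SII groups are called C9a.SII and hCD2.SII after their line. Transduced cells were collected on day 3, 6 or 9 as CD45+, as reporter positive or as both (double positive: tdT+CD45+ or YFP+CD45+). The controls were untransduced C9a.MEF (n = 4, sorted tdT-CD45-) and hCD2.MEF (n = 4, sorted YFP-CD45-), which carry the same reporter and Cre alleles as the cells made from them. Wildtype splenic subsets were conventional dendritic cells type 1 (cDC1, n = 3, CD11c+MHC-II+XCR1+CD11b-) and type 2 (cDC2, n = 3, CD11c+MHC-II+CD11b+XCR1-) and plasmacytoid dendritic cells (pDC, n = 5, CD11c+Siglec-H+B220+BST2+).

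C1q is the recognition protein of the classical complement pathway, assembled from the A, B and C chains that C1qa, C1qb and C1qc encode, and in tissues it comes largely from macrophages and related myeloid cells. Once C1q has bound a target, the proteases C1r and C1s cleave C4 and C2 into a convertase that splits C3, the component on which all complement pathways meet, and properdin (Cfp), a leukocyte product, stabilises the convertase of the alternative pathway. The fragments C3a and C5a signal through C3ar1 and C5ar1 on myeloid cells, whereas fibroblasts are known sources of C3, C1r, C1s and the C1 inhibitor Serping1. Comparing transduced cells with the MEFs of their line asks which of these myeloid and fibroblast complement genes moved with the change of cell state.

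Levels are CPM, counts scaled by the library total. Totals ran from 1146927 to 21976374 counts (median 10960122), 2 libraries had under 2000000, and 3 counts, the limit that a count of 0 allows, corresponded to 0.137 to 2.62 CPM. The labels do not say that replicates came from separate cultures or animals, so p-values measure the spread between these libraries. A gene was called where edgeR's quasi-likelihood test gave a Benjamini-Hochberg adjusted p under 0.05 over all genes and a change of at least 2-fold. Fold changes are log2 differences of the first-named group minus the second. The labelled cell types carried their defining markers: the summed CPM of 12 fibroblast genes was 18134 to 19526 in C9a.MEF, and of 8 cDC1 genes 6479.8 to 6765 in cDC1 libraries. Against the MEFs of their line, all pan-leukocyte markers tested (6 or 7 of a list of 8) were called higher in the day 9 double positive cells of each cocktail and line. Of all genes tested, 21.8% were called in PIB, 29.6% in PIP, 21.3% in C9a.SII and 19.2% in hCD2.SII. These marker calls are no check of identity, because the cells were sorted on CD45, which Ptprc of this list encodes. The list summed to 2.46 to 4.40 CPM in C9a.MEF and 3.53 to 4.30 CPM in hCD2.MEF, so its genes could hardly be tested without being called. By their transduced factors 3 libraries went against their label (PIB day 6 tdT+ replicate 4, PIP day 3 tdT+ replicate 5 and C9a.SII day 6 tdT+ replicate 5). They entered no pairwise comparison, but they were kept in the fit over all groups that was 1 of the other settings. Within the groups compared, libraries apart from their replicates were PIB day 9 double positive replicate 5, PIP day 3 double positive replicate 3, C9a.SII day 3 double positive replicates 2 and 4, C9a.SII day 9 double positive replicate 1 (1146927 counts), hCD2.SII day 9 double positive replicate 1 (Col1a1 2801 CPM, against 145.9 and 101.8) and pDC replicate 1 (1838064 counts, Col1a1 1046 CPM). In bulk RNA, fewer cells of a type and less RNA per cell cannot be told apart.

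The 3 C1q genes lie next to each other on chromosome 4 (GRCm38, GENCODE M21), all on the minus strand: C1qa at chr4:136895917-136898803, C1qc at chr4:136889804-136893065 and C1qb at chr4:136880129-136886187. The bases before the start of C1qb and C1qc are shown because these genes rose together from near 0 in cells given the factor PU.1, whose core motif GAGGAA was searched on both strands beside TGANTCA (AP-1) and TGCTGA (Maf core), none of which overlap each other. Capitals mark the matches in the RefSeq sequences (GRCm38.p6), printed 5′ to 3′ on the minus strand.

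C1qb, chr4:136886201-136886450, 250 bases: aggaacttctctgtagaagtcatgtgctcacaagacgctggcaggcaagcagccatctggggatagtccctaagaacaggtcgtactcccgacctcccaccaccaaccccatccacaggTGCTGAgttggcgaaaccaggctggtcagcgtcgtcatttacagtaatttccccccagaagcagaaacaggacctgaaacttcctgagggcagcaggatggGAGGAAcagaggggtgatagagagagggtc

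C1qc, chr4:136893066-136893164, 99 bases: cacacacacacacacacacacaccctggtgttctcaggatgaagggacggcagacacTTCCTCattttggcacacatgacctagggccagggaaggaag

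The C1qb window held GAGGAA 30 bases before the RefSeq start and TGCTGA farther upstream. The C1qc window held the reverse complement TTCCTC 193 bases before the RefSeq start, and only its 99 bases outside the GENCODE gene are printed. Among 32851 RefSeq promoters, windows of the same 250 bases held the PU.1 core in 23.3%, the Maf core in 16.1% and the AP-1 letters in 6.75%, so a match is common and is a description of these letters alone. Sequences matched 6 of the 8 members. C3 held the Maf core 182 bases before its start, C3ar1 the AP-1 letters at 22 and the Maf core farther from it, C5ar1 the Maf core at 17, and the Cfp window held none of the 3 motifs.

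C1qb and C1qc, near 0 in fibroblasts, rose in day 9 double positive cells of PIB and PIP to means above those of the 3 splenic subsets, while C1qa stayed lower. C9a.MEF libraries held 1 or 2 reads each of C1qb (0.0912, 0.0893, 0.0919 and 0.154 CPM) and of C1qc (0.0912, 0.179, 0.184 and 0.0771 CPM) and a single C1qa read in 1 of 4 libraries. In PIB day 9 double positive cells C1qb was 8.44, 5.32, 8.22, 10.3 and 29.9 CPM in the 5 libraries, and C1qc 4.94, 3.60, 4.81, 6.70 and 19.8 CPM. Every PIB library lay above every MEF library for both genes, with replicate 5 highest.

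C1qb was higher in these PIB cells by a log2 fold change of 6.72 ± 0.84 (SE), edgeR adjusted p = 0.000109, and C1qc by 5.83 ± 0.79 (SE), edgeR adjusted p = 0.000129. Without replicate 5 the C1qc difference was 5.22 (adjusted p = 3.9e-11 by the same test). As ratios of summed counts per summed total, C1qb was 105.2 (exact 95% interval 44.9 to 325) times and C1qc 55.9 (exact 95% interval 25.5 to 153.1) times the MEF level. These intervals cover counting error only and are wide because the MEF sums were 5 and 6 reads. PIP day 9 double positive cells had C1qb at 6.92, 9.90, 5.21 and 9.13 CPM and C1qc at 3.08, 5.12, 2.61 and 4.29 CPM in 4 libraries, again with no overlap with C9a.MEF. The log2 fold changes were 6.25 ± 0.34 (SE), edgeR adjusted p = 3.64e-11, for C1qb and 4.96 ± 0.39 (SE), edgeR adjusted p = 6.66e-09, for C1qc. PIB and PIP share the C9a.MEF controls. Set directly against each other on day 9, their C1qb differed by 0.49 ± 0.49 (SE), edgeR adjusted p = 0.425, and C1qc by 0.89 ± 0.51 (SE), edgeR adjusted p = 0.17, neither of which was called, and the libraries overlapped. Without PIB replicate 5 the C1qc difference was 0.28 (adjusted p = 0.307).

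SII cells carried less C1q. C9a.SII day 9 double positive libraries held 0.872, 4.21, 1.03 and 1.29 CPM of C1qb and 0.872, 3.35, 1.37 and 1.499 CPM of C1qc. These values were numerically above C9a.MEF, but those of replicate 1 (1146927 counts) lay under its 3-count limit of 2.62 CPM and cannot be told from 0. The 2 genes did not pass the low-count filter in that comparison. Without the filter the edgeR adjusted p was 1.14e-06 for C1qb and 2.5e-06 for C1qc. As ratios of summed counts per summed total, C1qb was 18.7 (exact 95% interval 7.63 to 59.7) times the C9a.MEF level. C1qc was 15.1 (exact 95% interval 6.57 to 42.8) times that level, and both intervals cover counting error only. PIB cells exceeded C9a.SII cells in C1qb by 2.58 ± 0.65 (SE), edgeR adjusted p = 0.0115, and PIP cells did so by 2.10 ± 0.43 (SE), edgeR adjusted p = 0.00212. The first of these calls was lost without the low-count filter (2.64, adjusted p = 0.0564), and without C9a.SII replicate 2 the differences were 3.42 and 2.94. In hCD2.SII day 9 double positive cells C1qb was 0.0962, 0.15 and 0.34 CPM and C1qc 0, 0.15 and 0.34 CPM. In hCD2.MEF C1qb was 0.14, 0.081, 0 and 0.168 CPM and C1qc 0, 0.324, 0.177 and 0.168 CPM. The libraries overlapped for both genes, although the highest value of each was in hCD2.SII. A rise was not detectable at this depth. The day 9 SII effect on C1q did not pass the test of a difference between the lines: C1qb differed by 3.31 ± 1.24 (SE), edgeR adjusted p = 0.255.

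C1qb and C1qc rose between day 3 and day 9 in PIB and PIP. C1qb was 1.86, 1.34, 0.418 and 1.26 CPM in PIB double positive cells on day 3, 8.51, 5.01, 5.28 and 4.49 CPM on day 6 and, as above, at least 5.32 CPM on day 9. From day 3 to day 9 C1qb increased by 2.98 ± 0.57 (SE), edgeR adjusted p = 0.00386, and C1qc by 2.32 ± 0.56 (SE), edgeR adjusted p = 0.0103, with no overlap of libraries in either. Without PIB day 9 replicate 5 the C1qc increase was 1.71. In PIP the same step was 2.51 ± 0.51 (SE), edgeR adjusted p = 0.0148, for C1qb and 2.91 ± 0.60 (SE), edgeR adjusted p = 0.0142, for C1qc. Both PIP calls were lost without PIP day 9 replicate 2 (adjusted p = 0.0507 and 0.0523 by edgeR), and day 3 held 3 libraries, of which replicate 3 had 0.227 CPM of C1qb and no C1qc read.

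C1q in PIB went with the CD45 gate on day 9, as the plot of day 9 levels by sort gate shows. PIB cells that were tdT+ without a CD45 gate held 0.427, 0.66, 0.0493, 1.05 and 1.71 CPM of C1qb in 5 libraries, all below the 5 double positive libraries, and the double positive cells were higher by 4.15 ± 0.66 (SE), edgeR adjusted p = 0.00572. C1qc followed with 4.11 ± 0.61 (SE), edgeR adjusted p = 0.00329. Without double positive replicate 5 the differences were 3.56 and 3.48. In PIP, tdT+ cells held 0.775, 1.96, 2.01 and 2.52 CPM of C1qb, also without overlap, but the difference of 2.07 ± 0.32 (SE), edgeR adjusted p = 0.0561, was not called. CD45+ sorted cells without a reporter gate had C1qb at 12.6, 11.2, 12.7 and 17.003 CPM in PIP, 2.31, 3.50, 12.03 and 8.11 CPM in PIB and 0.923, 2.25, 6.80 and 6.86 CPM in C9a.SII on day 9.

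C1qa, the A chain, passed the low-count filter in 0 of 28 comparisons, so its levels are given without a main test. It was 0.318, 0.172, 0.666, 0.687 and 1.23 CPM in PIB, 0.154, 0.656, 0.359 and 0.365 CPM in PIP and 0, 2.16, 0.685 and 0.75 CPM in C9a.SII day 9 double positive cells. Without the filter, C1qa was called higher than in C9a.MEF in all 3, with edgeR adjusted p of 1.47e-05, 0.00125 and 2.02e-05, against 1 read in the 4 MEF libraries together. Per kilobase of exon, PIB day 9 double positive cells held 0.59 CPM of C1qa beside 11.4 CPM of C1qb and 4.13 CPM of C1qc, and PIP cells 0.369 beside 7.16 and 1.95 CPM per kilobase. The 3 chains were closer in the CD45+ cells of PIB on day 3, at 13.3, 17.2 and 8.57 CPM per kilobase for C1qa, C1qb and C1qc, a group in which replicate 3 supplied most reads.

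The share of C1q reads that came from C1qa was computed in the 56 libraries with at least 30 C1q reads, a measure chosen after the levels had been seen and given without a test. C1qa supplied 1.89 to 4.86% of C1q reads in the 5 PIB day 9 double positive libraries and 1.52 to 4.40% in the 4 of PIP. In C9a.SII day 9 double positive cells the share was 21.2 to 22.2% in 3 libraries, on 33 to 90 C1q reads each, and in the CD45+ gate of that day 13.6 to 28.96% in 3 libraries. Replicate 3 of PIB day 3 CD45+ cells, with 721 C1qa reads of 2520, had 28.6% (exact 95% interval 26.9 to 30.4%), and replicate 4 had 29.7% (24.3 to 35.6%). The share in C9a.SII and in these PIB replicates thus lay above that of every PIB and PIP day 9 double positive library.

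Adgre1, the macrophage surface protein F4/80, was named after its values were seen, for its level in the C9a.SII libraries with a high C1qa share. It was 0.478, 0.429, 0.518, 0.773 and 0.334 CPM in PIB and 0.846, 0.984, 0.18 and 0.821 CPM in PIP day 9 double positive cells, and 21.8, 26.9, 13.8 and 11.5 CPM in C9a.SII. In CD45+ PIB cells of day 3 it was 0.607, 0, 135.99 and 6.90 CPM, and replicate 3 of that group was the highest of all libraries for each C1q chain, with C1qa at 49.7, C1qb at 65.1 and C1qc at 58.9 CPM. Replicates 1 and 2 had C1qb at 1.62 and 1.44 CPM, so the group mean of 18.7 ± 30.99 CPM (SD, n = 4) rests on replicate 3. Over the 14 macrophage and monocyte markers the summed level in this replicate was 1410.2 CPM, against 171, 198 and 207 CPM in the others. Among libraries with at least 30 C1q reads, the 11 with 5 CPM or more of Adgre1 had C1qa shares of 13.6 to 43.6% (median 23.3%). The 45 under 5 CPM had 0 to 23.2% (median 4.86%). The higher set held every C9a.SII library with enough C1q reads and otherwise only CD45+ libraries of PIB. The lower set held PIB and PIP libraries only. Adgre1 level and cocktail therefore cannot be told apart in this split. Of 14 transduced libraries with 5 CPM or more of Adgre1, 11 had at least 30 C1q reads. A high C1qa share also came with little Adgre1 in some: PIB day 6 tdT+ replicate 2 had 22.6%, on 31 C1q reads, at 1.04 CPM of Adgre1, PIP day 3 CD45+ replicate 3 23.2% at 3.18 CPM, PIP day 6 CD45+ replicate 4 22.8% at 3.09 CPM and PIP day 6 double positive replicate 1 19.6% at 1.04 CPM. C9a.SII day 9 CD45+ replicate 2 had 13.6% at 20.6 CPM. In the spleen, cDC2 held 125.4, 131.8 and 129.5 CPM of Adgre1 and 0.817, 1.05 and 0.619 CPM of C1qb.

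Macrophage markers were called higher beside the C1q rise, but also where C1q stayed near the MEF level. Of those tested against MEFs on day 9, 8 of 10 were called higher in PIB, 8 of 9 in PIP, 6 of 8 in C9a.SII and 5 of 7 in hCD2.SII, with none lower. Of all genes tested, 21.8, 29.6, 21.3 and 19.2% were called higher or lower in that order. Any marker near 0 in MEFs could pass the low-count filter only through the transduced libraries, which limits the reading of these counts. The summed level of the whole macrophage list was 46.5 to 52.2 CPM in C9a.MEF, 868 to 1393 in PIB, 209 to 301 in PIP, 160.8 to 2219.8 in C9a.SII and 108.4 to 198 in hCD2.SII double positive cells. The C9a.SII median was 268.9 CPM, with the highest library far above it. In hCD2.MEF the sum was 28.5 to 30.99, and no rise of C1q was detectable in hCD2.SII. cDC2 held 714 to 867 CPM of these markers and day 9 PIB tdT+ cells held 209 to 906 CPM, both with little C1qb. Single genes of the list differed: Cd163 was at 0 in 2 of 5 PIB libraries and Timd4 at 0 in 3 of 4 C9a.SII libraries. Marco, also of the list, had a mean of 77.8 CPM in PIP day 9 CD45+ cells. Among the genes ranked below, its pattern over the 41 groups was the closest to C1qb and C1qc. The part of other cells in the C1q rise was not tested.

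**Figure D1:**
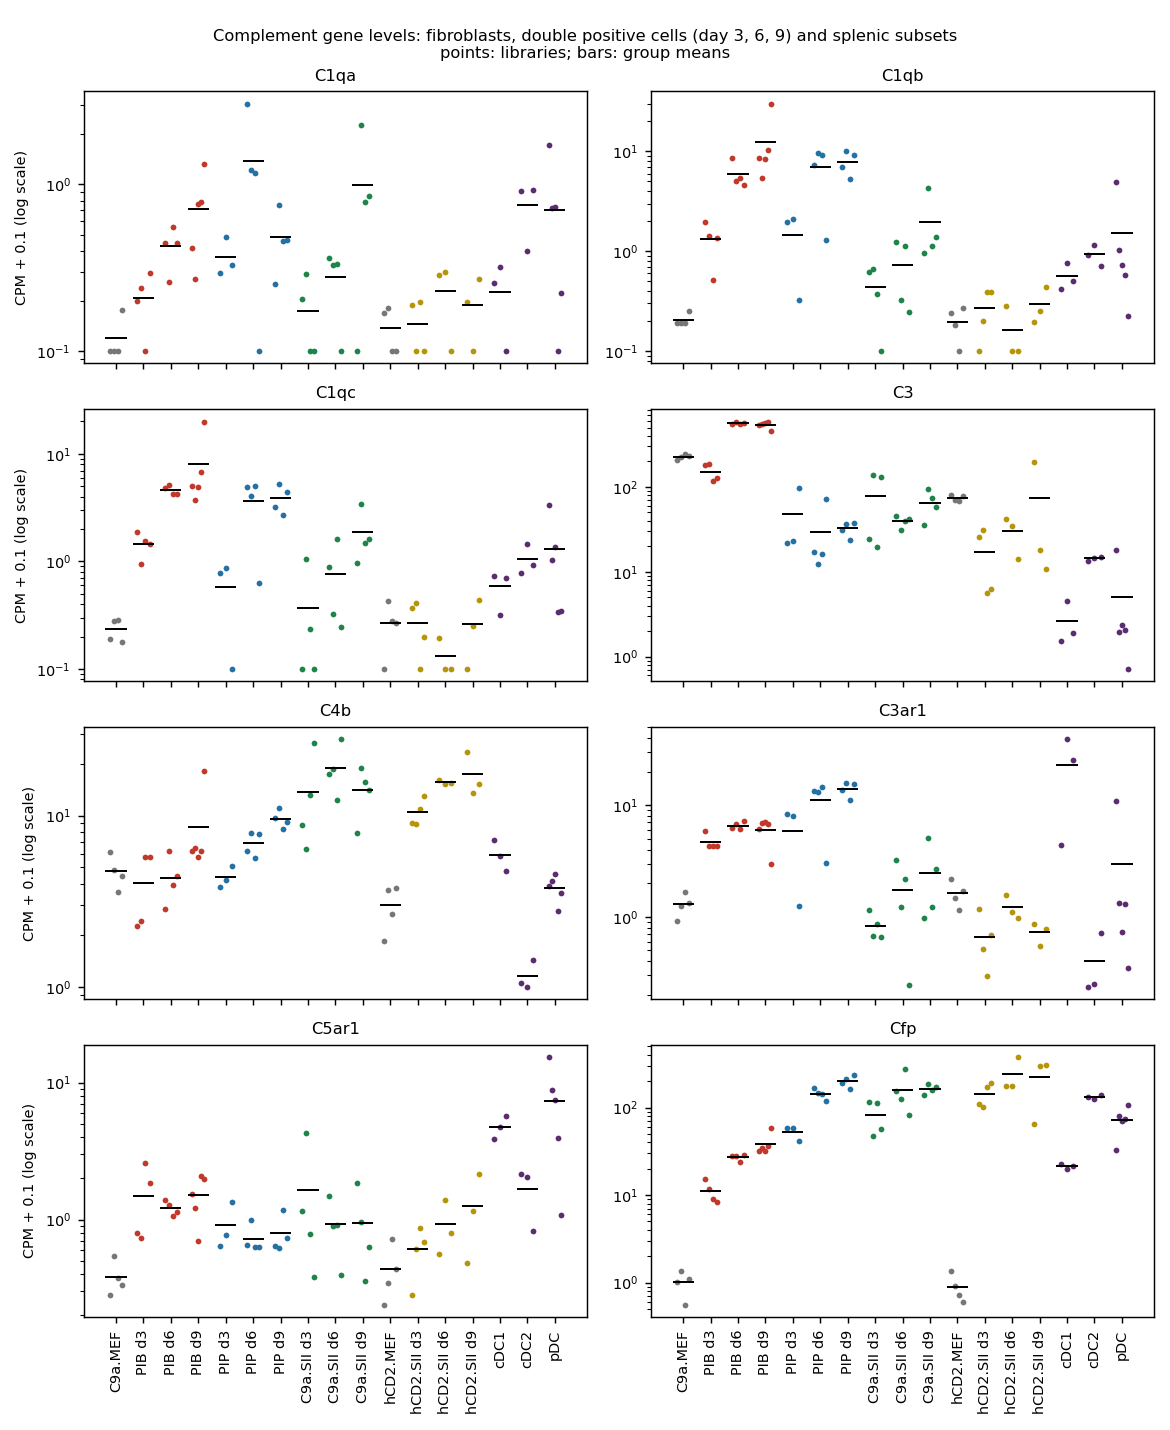
Levels of the 8 members in CPM + 0.1 on a log axis in untransduced MEFs, double positive cells of day 3, 6 and 9 and splenic subsets. Points are libraries and bars are group means. C1qb and C1qc climb from near 0 in MEFs in PIB and PIP, Cfp climbs in every cocktail, and C3 is highest in PIB on day 6 and 9.

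**Figure D2:**
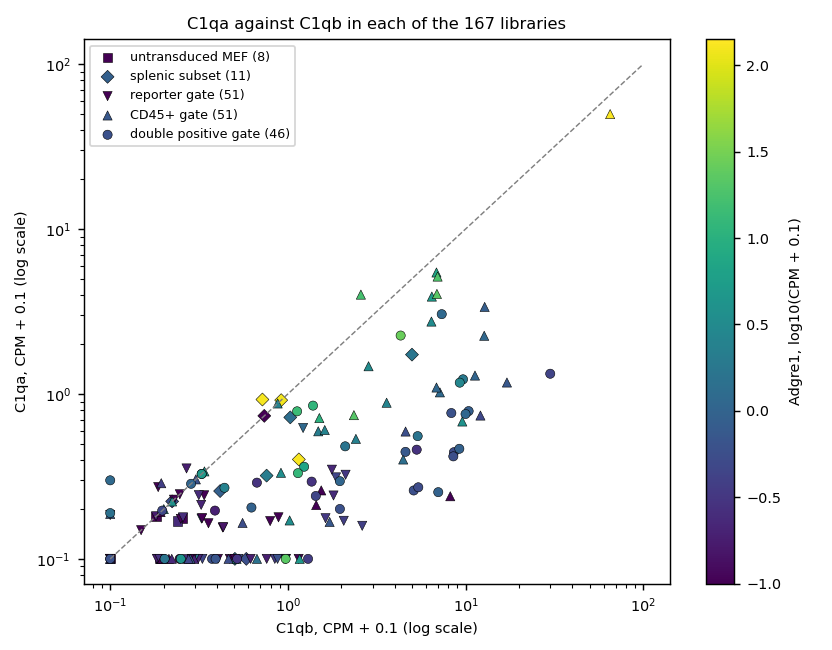
C1qa against C1qb in every library, both in CPM + 0.1 on log axes, with the gate as the symbol and Adgre1 as the colour. The dashed line marks equal levels. The library at the upper right is PIB day 3 CD45+ replicate 3 (C1qa 49.7 CPM), and many double positive libraries lie far below the line.

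Cfp, which encodes properdin, rose in all 4 settings and was the most widely changed member, called in 18 of the 28 comparisons in which it was tested. C9a.MEF held 0.912, 1.25, 0.46 and 1.002 CPM and hCD2.MEF 1.26, 0.81, 0.618 and 0.504 CPM. Day 9 double positive libraries held 32.01, 34.1, 31.7, 36.5 and 58.5 CPM with PIB and 192, 213, 164.6 and 234 CPM with PIP. No transduced library overlapped the MEFs of its line.

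With SII, Cfp reached 137.8, 185, 156.98 and 171 CPM in the C9a line and 64.9, 300.2 and 305 CPM in the hCD2 line, where replicate 1 was the low library. The log2 fold changes against MEFs were 5.43 ± 0.27 (SE), edgeR adjusted p = 1.48e-08, for PIB and 7.99 ± 0.15 (SE), edgeR adjusted p = 8.96e-15, for PIP. For C9a.SII the change was 7.55 ± 0.19 (SE), edgeR adjusted p = 1.37e-09, and for hCD2.SII 8.08 ± 0.71 (SE), edgeR adjusted p = 0.000608. PIB cells held less Cfp than PIP cells by a log2 difference of -2.53 ± 0.17 (SE), edgeR adjusted p = 5.64e-07, and less than C9a.SII cells by -2.13 ± 0.16 (SE), edgeR adjusted p = 1.23e-06, in both cases without overlap. PIP and C9a.SII differed by 0.43 ± 0.10 (SE), edgeR adjusted p = 0.00378, which is under 2-fold, and their libraries overlapped.

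The rise of Cfp was present on day 3, with 15.004, 11.7, 8.99 and 8.15 CPM in PIB, 58.5, 57.98 and 41.04 in PIP, 115.7, 46.9, 111.7 and 57.4 in C9a.SII and 110.6, 101.2, 172 and 192 in hCD2.SII double positive cells, and it was called higher than in MEFs in all 4, with log2 fold changes of 3.81, 5.95, 6.58 and 7.51. Between day 3 and day 9 it increased further in PIB by 1.58 ± 0.19 (SE), edgeR adjusted p = 0.000126, and in PIP by 2.03 ± 0.18 (SE), edgeR adjusted p = 0.000316, the latter lost in the fit over all groups (adjusted p = 0.0739). The SII changes over time, 0.99 ± 0.33 (SE), edgeR adjusted p = 0.307, in the C9a line and 0.61 ± 0.53 (SE), edgeR adjusted p = 0.507, in the hCD2 line, were not called. Without hCD2.SII day 9 replicate 1 the second was 1.01 (adjusted p = 0.033) and was called.

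The hCD2 line had a wide gap between gates: YFP+ cells of day 9 held 2.21, 3.31, 3.54 and 1.24 CPM of Cfp, against 64.9, 300.2 and 305 CPM in YFP+CD45+ cells, a difference of 6.43 ± 0.69 (SE), edgeR adjusted p = 0.00278. In C9a.SII, tdT+ cells held 27.6, 85.03, 70.7 and 71.5 CPM, and the difference to double positive cells, 1.44 ± 0.27 (SE), edgeR adjusted p = 0.0955, was not called. Splenic cDC2 held 130.7, 126.4 and 140.8 CPM, pDC 32.6, 79.2, 70.03, 74.7 and 106.3 CPM and cDC1 22.2, 19.6 and 21.6 CPM. cDC1 were lower than cDC2 by -2.63 ± 0.12 (SE), edgeR adjusted p = 1.03e-14, and lower than pDC by -1.76 ± 0.39 (SE), edgeR adjusted p = 0.00816. The latter call was lost when any 1 cDC1 library was left out (adjusted p 0.0563, 0.0695 and 0.061). PIB cells exceeded cDC1 by 1.15 ± 0.19 (SE), edgeR adjusted p = 0.000147. That call was lost in the fit over all groups (1.37, adjusted p = 0.0543) and with the replicate number as a block (0.95, under 2-fold). PIP cells were above cDC2 by 0.77 ± 0.10 (SE), edgeR adjusted p = 6.27e-06, which is under 2-fold.

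C3, the central component, is made by fibroblasts and went in opposite directions with the cocktail: up in PIB, down in PIP and in C9a.SII. C9a.MEF held 210.3, 225, 244 and 235 CPM. PIB day 9 double positive cells held 542, 555, 571, 578 and 459.6 CPM, PIP cells 31.4, 36.3, 23.9 and 37.8 CPM and C9a.SII cells 35.7, 95.4, 73.4 and 57.2 CPM. All PIB libraries were above, and all PIP and C9a.SII libraries below, the 4 MEF libraries.

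Against MEFs, C3 changed by 1.31 ± 0.08 (SE), edgeR adjusted p = 1.93e-08, in PIB, by -2.59 ± 0.10 (SE), edgeR adjusted p = 4.34e-10, in PIP and by -1.72 ± 0.19 (SE), edgeR adjusted p = 4.95e-05, in C9a.SII. The PIB call was lost in the fit over all groups (1.33 ± 0.53 (SE), edgeR adjusted p = 0.0574). That fit also holds the libraries that went against their label, among them PIB day 6 tdT+ replicate 4 with C3 at 17.7 CPM. PIB exceeded PIP by 3.93 ± 0.13 (SE), edgeR adjusted p = 1.76e-10, and C9a.SII by 3.01 ± 0.21 (SE), edgeR adjusted p = 9.89e-07, with no overlap of libraries in either comparison. In PIB the level moved with time: double positive cells held 180.4, 184, 116.9 and 125.9 CPM on day 3 and 552, 589, 554 and 569 CPM on day 6, and the increase from day 3 to day 9 was 1.63 ± 0.10 (SE), edgeR adjusted p = 4.14e-07. On day 3 PIB cells were below MEFs by -0.36 ± 0.08 (SE), edgeR adjusted p = 0.00203, under 2-fold.

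On day 3 C3 was called lower with PIP at 21.6, 23.3 and 97.2 CPM (-2.24 ± 0.49 (SE), edgeR adjusted p = 0.00724), although replicate 3 was high, and without it the change was -3.22. The call was lost without the low-count filter (adjusted p = 0.0527). C9a.SII held 24.5, 137.2, 19.6 and 130.4 CPM on day 3 (-1.60 ± 0.54 (SE), edgeR adjusted p = 0.0446). This call was lost without the low-count filter (adjusted p = 0.172), without any 1 MEF library and without C9a.SII replicate 1 or 3 (adjusted p 0.0632 to 0.0876), and replicates 2 and 4 were the high ones. The untransduced lines differed: hCD2.MEF held 81.3, 70.9, 68.5 and 78.4 CPM, and C9a.MEF were higher by 1.58 ± 0.06 (SE), edgeR adjusted p = 7.32e-11, a call lost in the fit over all groups (adjusted p = 0.463). In hCD2.SII double positive cells C3 was 25.3, 31.1, 5.58 and 6.23 CPM on day 3 (-2.07 ± 0.54 (SE), edgeR adjusted p = 0.014, lost without the low-count filter at adjusted p = 0.0587). On day 9 it was 196, 17.9 and 10.7 CPM, and the difference from hCD2.MEF was -0.0045 ± 0.93 (SE), edgeR adjusted p = 0.998. Without replicate 1, which also held the most Col1a1, C3 was called lower at -2.44 (adjusted p = 7.74e-08).

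Fibroblast markers moved beside C3, but not in the same order. Of 12 fibroblast genes, 11 were called lower against MEFs on day 9 in PIB, 11 in PIP, 12 in C9a.SII and 2 in hCD2.SII. These counts stood beside 21.8, 29.6, 21.3 and 19.2% of all genes called higher or lower. The summed level of the fibroblast genes is given next. Their summed level was 6858 to 8689 CPM in PIB, where C3 was higher than in MEFs, 1551 to 1963 in PIP and 1826 to 2376 in C9a.SII, where C3 was lower. The part of remaining fibroblasts in the C3 level was not tested. Among gates, C9a.SII tdT+ cells of day 9 held 164.3, 236, 211 and 158.6 CPM of C3, all above the double positive libraries, and the double positive cells were lower by -1.499 ± 0.21 (SE), edgeR adjusted p = 0.0256. This call was lost in the fit over all groups (adjusted p = 0.354) and when any 1 tdT+ library or double positive replicate 3 or 4 was left out (adjusted p 0.0586 to 0.134). The splenic subsets held little C3: 1.42, 4.40 and 1.81 CPM in cDC1, 13.3, 14.6 and 14.96 in cDC2 and 17.95, 1.86, 2.23, 1.93 and 0.616 in pDC. cDC1 were lower than cDC2 by -2.52 ± 0.32 (SE), edgeR adjusted p = 6.48e-07. Without cDC1 replicate 2 the difference was -3.13. Cells made with each cocktail stayed above their splenic counterparts, PIB over cDC1 by 8.10 ± 0.24 (SE), edgeR adjusted p = 4.21e-11, PIP over cDC2 by 1.35 ± 0.15 (SE), edgeR adjusted p = 6.53e-07, and C9a.SII over pDC by 4.01 ± 0.91 (SE), edgeR adjusted p = 0.00622. Without cDC1 replicate 2 the first was 8.72, and without pDC replicate 1 the last was 5.58.

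C4b, which encodes the C4 that C1s cleaves, rose with SII in both lines and with PIP, from a low level. The gene lies at chr17:34728380-34743882 and has a near-identical copy, C4a, so reads may be split or shared between them and its levels are uncertain. C9a.MEF held 6.02, 4.73, 3.49 and 4.32 CPM, PIP day 9 double positive cells 9.61, 10.95, 8.27 and 9.03 CPM and C9a.SII cells 7.85, 18.9, 15.7 and 13.9 CPM, with every transduced library above the MEFs. The log2 fold changes were 1.26 ± 0.16 (SE), edgeR adjusted p = 2.97e-06, for PIP and 1.74 ± 0.20 (SE), edgeR adjusted p = 3.37e-05, for C9a.SII.

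In hCD2.SII, C4b was 23.4, 13.5 and 15.3 CPM against 1.74, 3.57, 2.56 and 3.70 CPM in hCD2.MEF, a difference of 2.58 ± 0.31 (SE), edgeR adjusted p = 0.000702. PIB cells held 6.13, 6.35, 5.63, 6.10 and 18.1 CPM, overlapping the MEFs. Their difference of 0.89 ± 0.36 (SE), edgeR adjusted p = 0.0594, was not called, and without PIB replicate 3 it was 1.01 and called (adjusted p = 0.0432). The rise in SII was there on day 3, at 8.69, 6.26, 13.03 and 26.4 CPM in the C9a line (1.58 ± 0.40 (SE), edgeR adjusted p = 0.0125) and 8.95, 8.81, 10.9 and 12.9 CPM in the hCD2 line (1.91 ± 0.25 (SE), edgeR adjusted p = 5.52e-05). In PIP it came later: C4b was 3.72, 4.10 and 5.002 CPM on day 3 and rose by 1.27 ± 0.17 (SE), edgeR adjusted p = 0.00184, by day 9, a call lost in the fit over all groups (adjusted p = 0.137). The gate difference in C9a.SII was not called, with C9a.SII tdT+ cells at 28.7, 21.02, 11.1 and 14.5 CPM (difference -0.35 ± 0.30 (SE), edgeR adjusted p = 0.801).

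Splenic levels of C4b were 7.10, 5.71 and 4.64 CPM in cDC1, 0.953, 0.903 and 1.34 in cDC2 and 3.81, 4.04, 4.46, 2.66 and 3.45 in pDC. cDC1 exceeded cDC2 by 2.43 ± 0.40 (SE), edgeR adjusted p = 2.13e-05. PIP cells were above cDC2 by 3.28 ± 0.26 (SE), edgeR adjusted p = 6.98e-09, C9a.SII cells above pDC by 2.10 ± 0.31 (SE), edgeR adjusted p = 0.000281, and hCD2.SII cells above pDC by 2.35 ± 0.34 (SE), edgeR adjusted p = 0.000506, all without overlap. The call of cDC2 below pDC, -1.62 ± 0.51 (SE), edgeR adjusted p = 0.0291, was lost without the low-count filter (adjusted p = 0.206) and when any 1 cDC2 library was left out (adjusted p 0.0724 to 0.123).

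C3ar1, the C3a receptor, was higher with the 2 cocktails that carry Pu.1. C9a.MEF held 0.821, 1.16, 1.56 and 1.23 CPM, PIB day 9 double positive cells 6.05, 6.87, 6.96, 6.70 and 2.90 CPM and PIP cells 13.5, 15.5, 10.96 and 15.3 CPM, without overlap. The log2 fold changes were 2.37 ± 0.29 (SE), edgeR adjusted p = 1.3e-05, for PIB and 3.75 ± 0.18 (SE), edgeR adjusted p = 9.66e-12, for PIP, and PIB was below PIP by -1.35 ± 0.21 (SE), edgeR adjusted p = 0.000146, a call lost in the fit over all groups (adjusted p = 0.076). C9a.SII cells held 0.872, 4.97, 1.11 and 2.57 CPM, with an uncalled difference of 1.16 ± 0.45 (SE), edgeR adjusted p = 0.0566. Without C9a.SII replicate 1 or 3 it was 1.25 and 1.503 and called (adjusted p 0.0186 and 0.014), and without replicate 2, the highest library, it was 0.55 (adjusted p = 0.324). PIP exceeded C9a.SII by 2.54 ± 0.36 (SE), edgeR adjusted p = 0.000231, and by 3.17 without C9a.SII replicate 2.

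In hCD2.SII cells C3ar1 was 0.77, 0.449 and 0.679 CPM against 2.09, 1.38, 1.06 and 1.60 CPM in hCD2.MEF, lower by -1.25 ± 0.41 (SE), edgeR adjusted p = 0.0408. With replicate number as a block, in the comparison where numbers paired the libraries, the call was lost (-1.25, adjusted p = 0.0936), as it was with DESeq2's Wald test (adjusted p = 0.0617), without the low-count filter, in the fit over all groups (adjusted p = 0.27) and without any of 5 single libraries (hCD2.MEF replicates 1, 2 and 4 and hCD2.SII replicates 2 and 3, adjusted p 0.0643 to 0.117). On day 3 PIB cells held 5.74, 4.22, 4.18 and 4.17 CPM (2.17 ± 0.25 (SE), edgeR adjusted p = 7.15e-06), and the change from there to day 9 was 0.17 ± 0.24 (SE), edgeR adjusted p = 0.616. Among splenic cells C3ar1 was highest in cDC1, at 4.26, 38.7 and 25.4 CPM against 0.136, 0.15 and 0.619 CPM in cDC2. cDC1 exceeded cDC2 by 5.98 ± 1.30 (SE), edgeR adjusted p = 0.0168, a call lost when any 1 cDC2 library was left out (adjusted p 0.0573 to 0.0656). PIP cells were above cDC2 by 5.48 ± 0.34 (SE), edgeR adjusted p = 3.38e-10, and by 6.71 without cDC2 replicate 3.

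C5ar1, the C5a receptor, stayed low in cultured cells. It was 0.182, 0.446, 0.276 and 0.231 CPM in C9a.MEF and 1.43, 1.12, 0.592, 1.98 and 1.90 CPM in PIB day 9 double positive cells, all above the MEFs, with a difference of 2.31 ± 0.46 (SE), edgeR adjusted p = 0.00072. PIP cells held 0.538, 0.525, 1.08 and 0.639 CPM and C9a.SII cells 1.74, 0.864, 0.257 and 0.536 CPM, and the gene did not pass the low-count filter against MEFs in either. Splenic cDC1 held 3.79, 4.62 and 5.65 CPM, cDC2 2.04, 1.96 and 0.722 CPM and pDC 15.2, 8.69, 7.32, 3.87 and 0.985 CPM.

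PIB cells were below cDC1 in C5ar1 by -1.44 ± 0.36 (SE), edgeR adjusted p = 0.00225, without overlap, a call lost in the fit over all groups (adjusted p = 0.0869). C9a.SII cells were below pDC by -3.26 ± 0.85 (SE), edgeR adjusted p = 0.00977, although pDC libraries spanned a wide range and overlapped them. cDC1 were above cDC2 by 1.62 ± 0.42 (SE), edgeR adjusted p = 0.0021, a call also lost in the fit over all groups (adjusted p = 0.164).

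**Figure D3:**
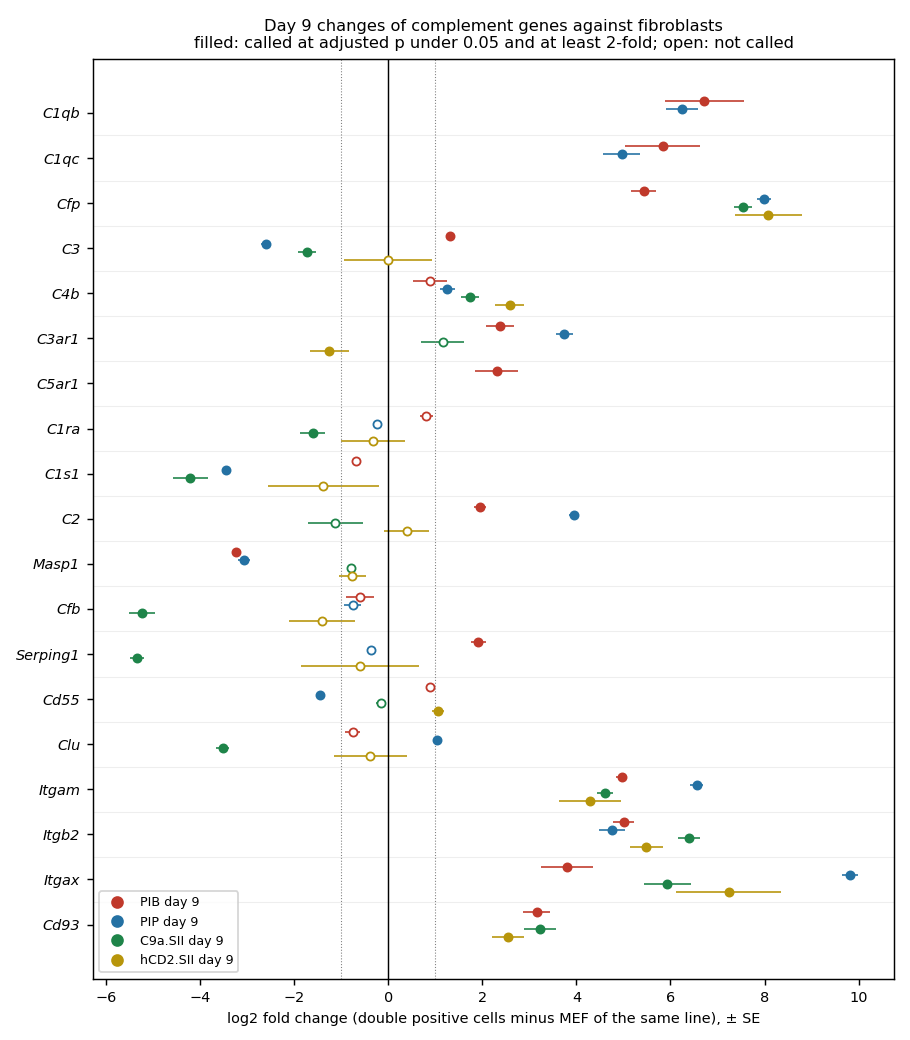
Log2 fold change ± SE of the members and of the named pathway genes in day 9 double positive cells against MEFs of the same line, where the gene passed the low-count filter. Filled points were called and open points were not, and dotted lines mark a 2-fold change. Cfp, Itgam, Itgb2, Itgax and Cd93 lie to the right in every cocktail shown, and C3 lies on both sides.

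Counted together, 6 of the 7 members tested in PIB day 9 double positive cells were called against C9a.MEF, all higher, beside 21.8% of the 15776 genes tested. In PIP 6 of 6 were called, 5 higher and 1 lower, beside 29.6% of the 15693 genes tested, in C9a.SII 3 of 4 (2 higher and 1 lower) beside 21.3% of the 15661 genes tested, and in hCD2.SII 3 of 4 (2 higher and 1 lower) beside 19.2% of the 16448 genes tested. C1qb and C1qc in PIB and PIP, and C5ar1 in PIB, could pass the low-count filter only through the transduced libraries and so could hardly be tested without being called, which limits any reading of these counts against the background. The first 3 comparisons share C9a.MEF. On day 3 the counts were 2 of 4 in PIB (22.8% of the 15665 genes tested), 3 of 4 in PIP (21.8% of the 15894 genes tested), 3 of 4 in C9a.SII (17.6% of the 15718 genes tested) and 4 of 4 in hCD2.SII (24.1% of the 15583 genes tested), the percentages being all genes called.

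From day 3 to day 9, 4 of 7 members were called in PIB beside 12.1% of the 15702 genes tested, and 4 of 6 in PIP beside 6.21% of the 15823 genes tested, all higher. In C9a.SII 0 of 3 were called by edgeR, 1 had an unadjusted p under 0.05 and DESeq2 called 0, beside 0.109% of the 15541 genes tested, and hCD2.SII gave the same 0, 1 and 0 beside 6.54% of the 16044 genes tested. Between cocktails on day 9, 3 of 7 members were called for PIB against PIP (21.6% of the 15733 genes tested), 5 of 7 for PIB against C9a.SII (18.5% of the 16052 genes tested) and 3 of 6 for PIP against C9a.SII (22.5% of the 15679 genes tested). Within the last 2, C1qc was higher in PIB by 1.99 ± 0.58 (SE), edgeR adjusted p = 0.0199, and in PIP by 1.12 ± 0.36 (SE), edgeR adjusted p = 0.0273, and C3ar1 was higher in PIB by 1.17 ± 0.42 (SE), edgeR adjusted p = 0.0451. These 3 calls were lost in one or more other settings, with adjusted p up to 0.089, 0.289 and 0.151 in that order. Without PIB replicate 5 the first was 1.37, and without C9a.SII replicate 2 the last was 1.80. For the gates on day 9, double positive against reporter positive cells, 3 of 7 were called in PIB (1.7% of the 15214 genes tested), 1 of 5 in C9a.SII (0.148% of the 15586 genes tested) and 1 of 3 in hCD2.SII (12.2% of the 16173 genes tested). In PIP 0 of 7 were called by edgeR, with 3 at an unadjusted p under 0.05 and 2 called by DESeq2, beside 0.0122% of the 16406 genes tested. The third PIB call was C5ar1, at 2.40 ± 0.60 (SE), edgeR adjusted p = 0.0396, with overlapping libraries, which was lost in the fit over all groups and without any of 8 of the 10 single libraries (adjusted p up to 0.112). Without tdT+ replicate 5 it was 3.25. The 3 members called in PIB had tdT+ means of 0.779 (C1qb), 0.511 (C1qc) and 0.34 CPM (C5ar1). They could pass the low-count filter mainly through the double positive libraries and so could hardly be tested without being called. From day 3 to day 9 C1qb and C1qc could likewise pass mainly through the day 9 libraries. Their day 3 means were 1.22 and 1.36 CPM in PIB and 1.36 and 0.483 CPM in PIP. In the comparisons with C9a.SII on day 9 both genes could pass mainly through the PIB or PIP libraries. Their C9a.SII means were 1.85 and 1.77 CPM. This limits any reading of these counts against the shares of all genes.

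Against splenic cells, 6 of 7 members were called for PIB against cDC1 beside 57.5% of the 19061 genes tested, 5 of 7 for PIP against cDC2 beside 56% of the 16771 genes tested, 4 of 4 for C9a.SII against pDC beside 38.2% of the 15518 genes tested and 4 of 4 for hCD2.SII against pDC beside 33% of the 17439 genes tested. These backgrounds are themselves high, and the median log2 fold change of all genes was -0.11 for PIB against cDC1 and -0.24 for hCD2.SII against pDC, so values there are read relative to those shifts. It was -0.14 for cDC1 and -0.13 for cDC2 against pDC. C1qb in PIB was above cDC1 by 5.02 ± 0.94 (SE), edgeR adjusted p = 0.00147, and in PIP above cDC2 by 3.42 ± 0.33 (SE), edgeR adjusted p = 9.48e-08, with no overlap. C1qc was above by 4.20 ± 0.88 (SE), edgeR adjusted p = 0.00208, and 2.17 ± 0.38 (SE), edgeR adjusted p = 7.25e-05, in the same pairs. Means of C1qb and C1qc were 0.459 and 0.485 CPM in cDC1 and 0.83 and 0.953 CPM in cDC2. Both genes could pass the low-count filter mainly through the PIB and PIP libraries, which limits the reading of these counts against the backgrounds. The call of C3ar1 in PIB below cDC1, -1.58 ± 0.60 (SE), edgeR adjusted p = 0.0445, was lost without any of 7 single libraries (adjusted p up to 0.268 over all settings). In hCD2.SII against pDC, C3 was 4.28 ± 1.27 (SE), edgeR adjusted p = 0.0307, C5ar1 -2.56 ± 0.87 (SE), edgeR adjusted p = 0.0442, and Cfp 1.65 ± 0.48 (SE), edgeR adjusted p = 0.0247. All 3 had overlapping libraries, and without hCD2.SII replicate 1 the C3 difference was 1.95 (adjusted p = 0.192) and no longer called. Without pDC replicate 1 the C3 difference was 5.84, and without hCD2.SII replicate 1 that of Cfp was 2.31 and that of C5ar1 -1.87. Each of the 3 calls was lost without any of 4 or more single libraries. Between subsets 5 of 5 members were called for cDC1 against cDC2 (34.8% of the 16193 genes tested), 1 of 4 for cDC1 against pDC (15.8% of the 17066 genes tested) and 1 of 4 for cDC2 against pDC (34.9% of the 17752 genes tested). Between the untransduced lines 1 of 4 was called (2.93% of the 15364 genes tested). For the SII effect in the C9a line minus that in the hCD2 line 0 of 7 members were called by edgeR, 4 had an unadjusted p under 0.05 and DESeq2 called 1, beside 0.568% of the 17789 genes tested.

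The other genes of the pathway were taken from 4 lists, to be read beside the shares of all genes called on day 9 against MEFs, 21.8% in PIB, 29.6% in PIP, 21.3% in C9a.SII and 19.2% in hCD2.SII. Of 15 genes that start the classical and lectin pathways, 2 of 6 tested rose and 1 fell in PIB against MEFs on day 9, 2 of 7 rose and 3 fell in PIP, and 4 of 6 fell in C9a.SII. In hCD2.SII edgeR called 0 of 8, with 1 at an unadjusted p under 0.05 and 0 called by DESeq2. The median log2 fold change of the list was 0.87 beside -0.00026 over all genes tested in PIB, -0.25 beside 0.05 over all genes tested in PIP and -1.17 beside 0.01 over all genes tested in C9a.SII. C2, the partner of C4 in the convertase, rose by 1.95 ± 0.13 (SE) in PIB, from a mean of 5.67 to 21.1 CPM, and by 3.96 ± 0.11 in PIP, to 75.8 CPM. C1s1, which encodes the protease C1s, fell by 3.44 ± 0.07 in PIP and by 4.21 ± 0.36 in C9a.SII, from 133.05 CPM in MEFs to 10.5 and 5.83 CPM. C1ra, which encodes C1r, fell by 1.61 ± 0.27 in C9a.SII, from 96.7 to 28.6 CPM, and was not called in the other 3. Both proteases have close copies (C1rb and C1s2) that may share their reads. Masp1, a protease of the lectin pathway, fell by 3.23 ± 0.08 in PIB and by 3.07 ± 0.13 in PIP, from 82.97 to 8.46 and 8.41 CPM.

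The alternative and terminal pathway list of 9 genes had 2 tested in each comparison, Cfb and C8a, with medians of -1.32 beside -0.00026 over all genes tested in PIB, -0.43 beside 0.05 over all genes tested in PIP, -2.01 beside 0.01 over all genes tested in C9a.SII and -0.18 beside 0.01 over all genes tested in hCD2.SII. C8a, a chain of the terminal component C8 and named after its values were seen, fell by 2.04 ± 0.41 in PIB, from a mean of 1.58 to 0.352 CPM. In C9a.SII it rose by 1.22 ± 0.41, to 3.37 CPM, a call lost in the fit over all groups and without C9a.MEF replicate 1 or 4 or C9a.SII replicate 3 (0.72 without the last). EdgeR called 0 of the 2 in PIP (1 at an unadjusted p under 0.05, 0 called by DESeq2) and 0 in hCD2.SII (0 and 0). Cfb, factor B of the alternative convertase, fell by 5.23 ± 0.27 in C9a.SII, from 13.8 to 0.285 CPM. Of 15 regulators, 1 of 7 rose in PIB, 1 rose and 1 fell of 7 in PIP, 2 of 7 fell in C9a.SII and 1 of 8 rose in hCD2.SII, counts of 1 or 2 genes that do not stand clear of those shares, with list medians of 0.50 beside -0.00026 over all genes tested in PIB, 0.81 beside 0.05 over all genes tested in PIP, -0.04 beside 0.01 over all genes tested in C9a.SII and 0.47 beside 0.01 over all genes tested in hCD2.SII. Cd55, decay-accelerating factor, which limits the convertases on a cell's own surface, fell by 1.46 ± 0.06 (SE) in PIP, from a mean of 107.1 to 33.3 CPM. In hCD2.SII it rose by 1.06 ± 0.12, a call lost in the fit over all groups, without the low-count filter and without hCD2.SII replicate 3, each time by falling under 2-fold. Serping1, the C1 inhibitor, rose by 1.91 ± 0.16 in PIB, to 380.3 from 104.8 CPM, and fell by 5.34 ± 0.15 in C9a.SII, to 2.37 CPM. Clu, clusterin, fell by 3.52 ± 0.13 in C9a.SII. In PIP it rose by 1.04 ± 0.06, a call lost in the fit over all groups and without the low-count filter.

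Of 10 receptor genes, 4 of 7 rose in PIB, 3 of 6 in PIP, 4 of 8 in C9a.SII and 4 of 8 in hCD2.SII, and 1 fell in each SII comparison. The list medians were 3.16 beside -0.00026 over all genes tested in PIB, 2.50 beside 0.05 over all genes tested in PIP, 1.56 beside 0.01 over all genes tested in C9a.SII and 1.19 beside 0.01 over all genes tested in hCD2.SII. Receptor genes near 0 in MEFs, such as Itgax, could pass the low-count filter only through the transduced libraries. That selection lifts these counts and medians, so they are not read against the values over all genes. Itgam, the alpha chain of complement receptor CR3, rose by 4.96 ± 0.12 in PIB, from 3.77 to 112.9 CPM, and by 6.56 ± 0.14 in PIP, and its beta chain Itgb2 rose by 5.002 ± 0.23 and 4.76 ± 0.27. In C9a.SII these changes were 4.61 ± 0.18 for Itgam and 6.39 ± 0.23 for Itgb2, and in hCD2.SII 4.28 ± 0.66 and 5.49 ± 0.36. Itgax, the alpha chain of CR4 and the CD11c of dendritic cells, stood at 75.97 CPM in PIP and 0.0839 CPM in C9a.MEF. Calr, calreticulin, was the receptor list gene that fell, by 1.53 ± 0.11 in C9a.SII and by 1.37 ± 0.34 in hCD2.SII. The latter call was lost without the low-count filter and without hCD2.SII replicate 2 or 3, and without replicate 1 Calr fell by 2.03.

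**Figure D4:**
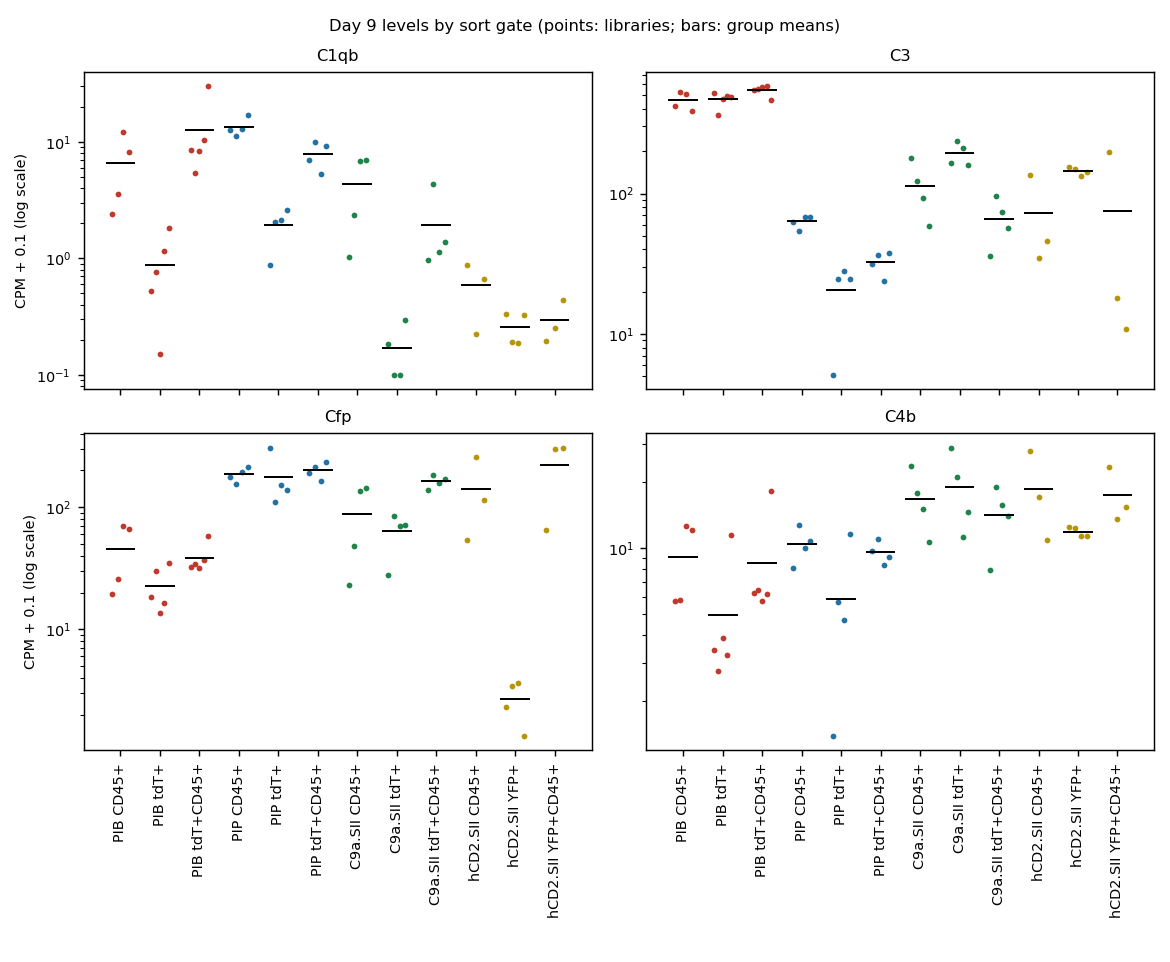
Day 9 levels of C1qb, C3, Cfp and C4b in CPM + 0.1 on a log axis for the 3 sort gates of each cocktail. Points are libraries and bars are group means. C1qb is low in every reporter gate, and Cfp in the YFP+ gate of hCD2.SII (1.24 to 3.54 CPM) lies below all other groups shown.

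Ordered over all 41 groups by their mean, neighbouring groups had overlapping libraries in all 40 pairs for C1qa, C1qb, C1qc, C3, C4b and C5ar1, and in 38 of 40 for C3ar1 and Cfp, so single ranks are not separated. The summed C1q level was highest in PIB day 3 CD45+ cells (49.1 ± 83.4 CPM, SD, n = 4, carried by replicate 3), then in PIP day 9 CD45+ cells (21.2 ± 3.89 CPM, SD, n = 4) and PIB day 9 double positive cells (21.03 ± 16.9995 CPM, SD, n = 5). C3 was highest in PIB day 6 double positive cells (566 ± 17.01 CPM (SD, n = 4)) and lowest in cDC1 (2.54 ± 1.62 CPM (SD, n = 3)). Cfp was highest in hCD2.SII day 6 double positive cells (243 ± 114.7 CPM (SD, n = 3)) and lowest in the untransduced MEFs. C4b was highest in C9a.SII day 3 tdT+ cells (25.6 ± 13.7 CPM (SD, n = 3)) and lowest in cDC2, C3ar1 highest in cDC1 (22.8 ± 17.4 CPM (SD, n = 3)) and C5ar1 in pDC (7.22 ± 5.40 CPM (SD, n = 5)). Without the library that went against its label, PIB day 6 tdT+ cells held 553 ± 32.2 CPM (SD, n = 3) of C3, against 419 ± 269 CPM (SD, n = 4) with it.

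The genes whose pattern was most like each member were ranked by Pearson's r of mean log2 CPM over the 41 groups, among 13521 named genes that reached 5 CPM in a group. The groups share cell lines and days and are not independent, so r is a description. For C1qa they were Ms4a7 (0.85), Clec4d (0.71) and Fcgr4 (0.65), for C1qb Marco (0.88), Hnmt (0.82) and Ms4a6d (0.81) and for C1qc Marco (0.80), Hnmt (0.79) and Ms4a6d (0.76). For C3 they were Mocs1 (0.93), Sh3bp5 (0.93) and Susd6 (0.92), for Cfp Mgat4a (0.95) and Akr1c13 (0.94) and for C4b Rhbdl1 (0.90), Eda (0.89) and Macrod2 (0.88). For the receptors they were Slc22a18 (0.85), Adgrf5 (0.85) and Cd207 (0.84) with C3ar1 and Ksr2 (0.87), Ctse (0.87) and Chil4 (0.84) with C5ar1. Among the members, C1qb and C1qc were closest (0.97), and C1qa stood at 0.82 with C1qb and 0.81 with C1qc, while C3 and Cfp ran against each other (-0.42).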

How the data were processed

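The authors deposited whole-number counts per Ensembl gene identifier for 167 libraries, and no other value was used. Per the labels' protocols, total RNA from 5000 sorted cells was made into libraries with a stranded kit for picogram input. Per the submitters' processing notes the build was mm10 and the tools included STAR 2.7.9a and Salmon 1.10.1. Which step each tool did, the gene annotation and how strand was handled are not given in the sources used here, so reads of overlapping genes or close copies may be shared. GENCODE M21 names were found for 52029 of 57010 identifiers. The 4981 unnamed ones held a median of 13.2% of counts (5.98 to 32.1%) and stayed in totals and fits. No libraries were copies of each other: over 266 pairs of libraries within groups, the chi-square of their counts divided by its degrees of freedom was at least 2.68 (median 27.3). The 28 comparisons used edgeR 4.0.16 in R 4.3.3 on the counts of their own groups, with TMM factors, filterByExpr and the quasi-likelihood F test in its robust form, with Benjamini-Hochberg adjusted p over all genes tested. The scripts were tested on simulated data. Of 2-fold changes, 46.1% were recovered for PIB day 9 against C9a.MEF and 20.6% for hCD2.SII day 9 against hCD2.MEF. Of 4-fold changes, 86.7 and 71.4% were recovered in that order. An uncalled result therefore does not show that a gene was unchanged, least of all in hCD2.SII. Levels are CPM of the library total, and exon lengths from M21 gave CPM per kilobase. Each comparison was repeated with size factors from DESeq2 1.42.0, with its Wald test, without the low-count filter, with a block for replicate number, in a fit over all groups, and without each library in turn. Libraries of the same number deviated together from their group means, with every correlation over 0.1, only in hCD2.SII against hCD2.MEF on day 9 (0.11 to 0.22 over 3 pairs), and pairing there rests on these values, since the labels give the numbers no meaning. Named genes were the 8 members in each comparison, called pathway genes of at least 5 CPM with the largest changes first, and the 3 genes most like each member. A gene of the regulator list and a gene like Cfp are not reported here. Marker genes were given as list sums, apart from Adgre1, Col1a1, Marco and genes at 0. The members, lists and tests were chosen with earlier results of these data known. Day 6 groups and CD45+ gates were described by level and entered only the fit over all groups.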

Additional observations from a re-analysis of the deposited data

Results flagged for a closer look

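Values of the 8 members were tested for a library far from its replicates in groups of 4 or 5 libraries with a mean of at least 1 CPM. Of 168 such gene and group values 37 held an outlying library, where chance flags about 1 in 20. All values are CPM, with the range of the other libraries of the group in parentheses, and no cause was tested.

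pDC replicate 1 stood apart in 3 genes, with C1qb at 4.90 (0.123 to 0.932), C3 at 17.95 (0.616 to 2.23) and C3ar1 at 10.9 (0.246 to 1.24). PIB day 3 CD45+ replicate 3 stood apart in 5 genes, with C1qa at 49.7 (0.0674 to 5.36), C1qb at 65.1 (1.44 to 6.76), C1qc at 58.9 (0.56 to 5.89), C3ar1 at 59.4 (6.03 to 7.05) and C5ar1 at 11.9 (0.472 to 0.56). PIB day 6 tdT+ replicate 4 stood apart in 2 genes, with C3 at 17.7 (534 to 590.4) and Cfp at 142.8 (14.3 to 17.9). PIB day 9 tdT+CD45+ replicate 5 stood apart in 5 genes, with C1qb at 29.9 (5.32 to 10.3), C1qc at 19.8 (3.60 to 6.70), C4b at 18.1 (5.63 to 6.35), C3ar1 at 2.90 (6.05 to 6.96) and Cfp at 58.5 (31.7 to 36.5). PIP day 3 tdT+ replicate 5 stood apart in 2 genes, with C3 at 44.7 (14.5 to 19.6) and C4b at 28.5 (2.33 to 3.12). PIP day 6 tdT+ replicate 4 stood apart in 2 genes, with C3 at 72.3 (9.96 to 18.04) and C3ar1 at 0.62 (8.50 to 9.25). PIP day 6 tdT+CD45+ replicate 4 stood apart in 2 genes, with C3 at 71.9 (12.2 to 16.9) and C3ar1 at 2.93 (12.96 to 14.5). PIP day 9 tdT+ replicate 1 stood apart in 2 genes, with C1qc at 1.68 (0.82 to 0.911) and C3 at 5.04 (24.4 to 28.1). C9a.SII day 3 CD45+ replicate 5 stood apart in 2 genes, with C3 at 86.7 (14.4 to 24.9995) and Cfp at 10.7 (118.1 to 144.8). hCD2.SII day 3 YFP+ replicate 5 stood apart in 3 genes, with C3 at 12.5 (65.2 to 77.8), C4b at 10.04 (1.99 to 3.75) and Cfp at 79.3 (5.85 to 8.03).

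The other outlying libraries each stood apart in 1 gene. PIB day 3 tdT+CD45+ replicate 1 held C3ar1 at 5.74 (4.17 to 4.22). PIB day 6 tdT+CD45+ replicate 3 held Cfp at 23.8 (27.9 to 28.7). PIB day 9 tdT+ replicate 5 held C4b at 11.4 (2.64 to 3.79). PIP day 3 CD45+ replicate 5 held C3 at 53.4 (10.9 to 18.9). PIP day 6 CD45+ replicate 5 held C3 at 43.9 (24.7 to 29.6). PIP day 6 CD45+ replicate 4 held C5ar1 at 5.59 (0.581 to 1.17). C9a.SII day 9 tdT+CD45+ replicate 2 held C1qb at 4.21 (0.872 to 1.29). hCD2.SII day 3 CD45+ replicate 1 held C3 at 29.8 (15.9 to 17.5). hCD2.SII day 6 YFP+ replicate 4 held Cfp at 120.5 (4.05 to 6.01).

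PIB day 6 tdT+ replicate 4 and PIP day 3 tdT+ replicate 5 are among the libraries whose transduced factors went against the label. For the difference of the SII effect between the C9a and hCD2 lines, edgeR's interaction test called 0 members, with 4 at an unadjusted p under 0.05, and DESeq2's Wald test called C3ar1 (2.46 on the log2 scale, adjusted p = 0.0383).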

How the results depend on the processing

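Member results were called 81 times. Over 1917 values under other settings 1737 kept the direction and the side of the threshold, 30 changed sign without a call under either setting, 46 gained the call, 0 called values reversed and the others lost the call, and 52 of the 81 calls were never lost. Of the alternatives other than leaving out a library, the fit over all groups lost the most calls (14), then no low-count filter (8) and the replicate block (5).

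Groups named by day are double positive cells. The number of members called moved by over 1.5 times in these settings. In the fit over all groups it was 6 instead of 3 for C9a.SII day 9 against C9a.MEF, 5 instead of 2 for PIB day 3 against C9a.MEF, 2 instead of 4 for PIP day 9 against PIP day 3, 1 instead of 0 for hCD2.SII day 9 against hCD2.SII day 3, 2 instead of 1 for cDC1 against pDC, 3 instead of 1 for cDC2 against pDC, 0 instead of 1 for C9a.MEF against hCD2.MEF and 2 instead of 1 for C9a.SII double positive against tdT+ cells. Without the low-count filter it was 6 instead of 3 for C9a.SII day 9 against C9a.MEF, 5 instead of 2 for PIB day 3 against C9a.MEF, 3 instead of 5 for PIB day 9 against C9a.SII day 9, 2 instead of 1 for cDC1 against pDC, 2 instead of 1 for cDC2 against pDC, 2 instead of 0 for PIP double positive against tdT+ cells and 5 instead of 1 for C9a.SII double positive against tdT+ cells. By DESeq2's Wald test it was 2 instead of 1 for cDC1 against pDC, 2 instead of 1 for cDC2 against pDC, 2 instead of 0 for PIP double positive against tdT+ cells, 2 instead of 1 for C9a.SII double positive against tdT+ cells and 1 instead of 0 for the SII effect in the C9a against the hCD2 line. With the replicate block it was 4 instead of 1 for cDC2 against pDC. The cause was not tested. In no other comparison did the replicate block change the number of members called by over 1.5 times. In PIP it ended the day 9 against day 3 call of C1qc (adjusted p = 0.0595).

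The count of all genes called (some given as a percentage of genes past the low-count filter) moved likewise. Without the low-count filter it was 3125 instead of 1907 for PIB day 9 against PIB day 3, 1486 instead of 982 for PIP day 9 against PIP day 3, 0.817% instead of 0.109% for C9a.SII day 9 against C9a.SII day 3, 2003 instead of 1050 for hCD2.SII day 9 against hCD2.SII day 3, 19006 instead of 10964 for PIB day 9 against cDC1, 11682 instead of 5926 for C9a.SII day 9 against pDC, 10783 instead of 5636 for cDC1 against cDC2, 730 instead of 450 for C9a.MEF against hCD2.MEF, 0.939% instead of 0.0122% for PIP double positive against tdT+ cells and 203 instead of 23 for C9a.SII double positive against tdT+ cells. In the fit over all groups it was 523 instead of 982 for PIP day 9 against PIP day 3, 449 instead of 17 for C9a.SII day 9 against C9a.SII day 3, 12490 instead of 5926 for C9a.SII day 9 against pDC, 10616 instead of 5747 for hCD2.SII day 9 against pDC, 8798 instead of 5636 for cDC1 against cDC2, 4525 instead of 2689 for cDC1 against pDC, 11893 instead of 6189 for cDC2 against pDC, 19 instead of 450 for C9a.MEF against hCD2.MEF, 0.841% instead of 1.7% for PIB double positive against tdT+ cells and 257 instead of 23 for C9a.SII double positive against tdT+ cells. With the replicate block it was 531 instead of 982 for PIP day 9 against PIP day 3, 2 instead of 17 for C9a.SII day 9 against C9a.SII day 3, 452 instead of 1050 for hCD2.SII day 9 against hCD2.SII day 3, 1 instead of 2 for PIP double positive against tdT+ cells, 6 instead of 23 for C9a.SII double positive against tdT+ cells, 659 instead of 1974 for hCD2.SII double positive against YFP+ cells and 0.259% instead of 0.568% for the SII effect in the C9a against the hCD2 line. By DESeq2's Wald test it was 215 instead of 17 for C9a.SII day 9 against C9a.SII day 3, 68 instead of 2 for PIP double positive against tdT+ cells, 120 instead of 23 for C9a.SII double positive against tdT+ cells and 1.49% instead of 0.568% for the SII effect in the C9a against the hCD2 line.

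Leaving out 1 library at a time, the members called ran from 3 to 6 for C9a.SII day 9 against C9a.MEF, 2 to 5 for hCD2.SII day 9 against hCD2.MEF, 2 to 4 for PIB day 3 against C9a.MEF, 2 to 4 for PIP day 9 against PIP day 3, 0 to 1 for C9a.SII day 9 against C9a.SII day 3, 0 to 1 for hCD2.SII day 9 against hCD2.SII day 3, 3 to 6 for PIB day 9 against C9a.SII day 9, 1 to 4 for hCD2.SII day 9 against pDC, 0 to 2 for cDC1 against pDC, 0 to 3 for cDC2 against pDC, 0 to 2 for PIP double positive against tdT+ cells, 0 to 1 for C9a.SII double positive against tdT+ cells, 1 to 3 for hCD2.SII double positive against YFP+ cells and 0 to 1 for the SII effect in the C9a against the hCD2 line.

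For all genes called it was 2291 to 5834 for hCD2.SII day 9 against hCD2.MEF, 611 to 1161 for PIP day 9 against PIP day 3, 0 to 253 for C9a.SII day 9 against C9a.SII day 3, 548 to 2670 for hCD2.SII day 9 against hCD2.SII day 3, 1599 to 3606 for cDC1 against pDC, 2826 to 6478 for cDC2 against pDC, 324 to 726 for C9a.MEF against hCD2.MEF, 1.1% to 2.34% for PIB double positive against tdT+ cells, 1 to 37 for PIP double positive against tdT+ cells, 5 to 38 for C9a.SII double positive against tdT+ cells, 1142 to 4935 for hCD2.SII double positive against YFP+ cells and 46 to 811 for the SII effect in the C9a against the hCD2 line.

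Depth limits C1q most: C1qa passed the low-count filter in 0 of 28 comparisons, and C1qb and C1qc in 12 each. Levels under 0.137 to 2.62 CPM, 3 counts depending on the library, cannot be told from 0.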
